A study of Homo sapiens with 8 samples.

Results

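The loci described here are stretches of the genome listed as occupied by RNA polymerase III in windows on 8 autosomes. These windows are labelled as dispersed tRNA loci, apart from the tRNA genes of chromosomes 1 and 6. The members were chosen by position only: a listed region belongs if its midpoint falls in 1 of 10 hg19 windows on chromosomes 5, 11, 12, 13, 14, 15, 16 and 19, which together span 663 Mb, and outside 7 short intervals that the rule leaves out. In all, 107 of the 1222 regions in the 4 lists met the rule, and a further 10 fell in the intervals left out. When overlapping regions of the 4 lists (at least 1 bp) were merged, the 1222 regions gave 788 loci, of which 54 were members. The windows are named for tRNA genes, but no hg19 annotation was used here, so regions were not matched to genes and the name could not be checked locus by locus. Dispersed is part of that name only, since 28 of the 54 loci lay in runs of neighbours, described below.

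RNA polymerase III makes tRNAs, 5S rRNA and other short RNAs, and POLR3A is its largest subunit. A tRNA gene is short and carries its promoter inside the transcribed part, as a pair of elements called the A box and the B box. TFIIIC recognises these elements and places TFIIIB just upstream of the gene, and TFIIIB then recruits the polymerase. A region listed by POLR3A ChIP-seq can therefore span a gene and its close flanks. No sequence of the build of the files was used here, so the boxes were not searched for.

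POLR3A was immunoprecipitated from MDA-MB-231, an established human breast cancer line, and from MDA-LM2, its highly metastatic derivative, with 2 ChIP libraries per line, and the comparison of the lines asks where occupancy by the polymerase differs. Both lines were grown in the same serum-containing medium, neither received a treatment other than fixation with 1% formaldehyde for 10 minutes, and 4 input libraries of the same lines were not analysed here. MDA-LM2 is a selected derivative of 1 parental line, and the labels name no separate cultures for the replicates, so p-values measure only the spread between these libraries, which may be technical. A region list holds no expression values, so the identity of the lines was not checked against markers.

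The lists differ widely in length. Replicates 1 and 2 of MDA-MB-231, called MB-1 and MB-2 from here on, list 646 and 18 regions. Replicates 1 and 2 of MDA-LM2, called LM-1 and LM-2, list 86 and 472. The read depth behind the lists is unknown. The authors' strength score has no stated definition, so it is given beside its percentile within its own list (100 is the strongest region). Percentiles rank regions among lists of very different length, so a percentile in 1 library is not on the same scale as in another, and differences between them are given as a description.

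The windows held 50 regions of MB-1 but only 6 of MB-2, and 18 and 33 regions of LM-1 and LM-2. The lines overlapped completely, with both MDA-LM2 counts lying between the 2 counts of MDA-MB-231. Means were 28 ± 31.1 members (SD, n = 2) for MDA-MB-231 against 25.5 ± 10.6 (SD, n = 2) for MDA-LM2. An exact two-sided permutation test gave p = 1 (adjusted p = 1 over 4 tests), where 2 libraries against 2 cannot go below 0.333. The number of member loci listed averaged 28 in MDA-MB-231 and 24.5 in MDA-LM2. The difference of -2.5 regions (MDA-LM2 minus MDA-MB-231) became 19.5 without MB-1, 5 without LM-1, -10 without LM-2 and -24.5 without MB-2.

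As a share of each list, members were more frequent in the 2 short lists than in the 2 long ones. They made up 33.3% of the 18 regions of MB-2 (exact Clopper-Pearson 95% interval 13.3 to 59.0%) and 20.9% of the 86 regions of LM-1 (12.9 to 31.0%). In the long lists they were 7.74% of MB-1 (5.80 to 10.1%) and 6.99% of LM-2 (4.86 to 9.68%). The intervals of the long lists lie below those of the short lists. They cover counting error only. Between lines the mean share was 20.5 ± 18.1% in MDA-MB-231 and 13.96 ± 9.86% in MDA-LM2 (SD, n = 2 each), with an exact two-sided permutation p of 0.667 (adjusted p = 1). The share differed by -6.58 percentage points, and this became 6.22 without MB-2, 0.394 without LM-2, -19.4 without MB-1 and -13.6 without LM-1.

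**Figure D1:**
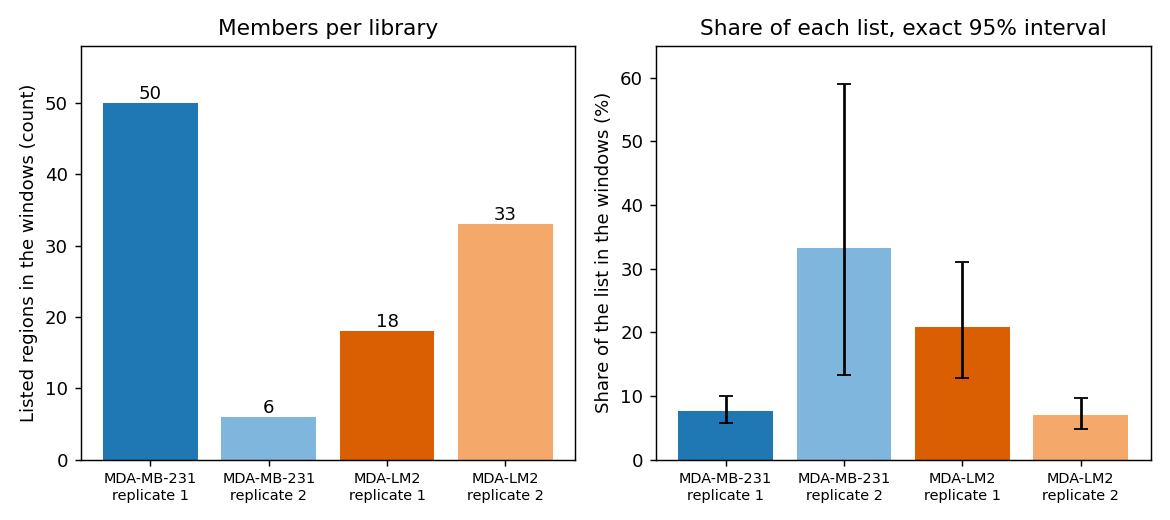
Left, number of listed regions in the dispersed tRNA windows for each POLR3A ChIP library; right, the same as a percent of that library's list, with exact 95% intervals as bars. MB-1 has the most members (50) and MB-2 the fewest (6), while the share is 33.3% in the 18-region list and 6.99 to 7.74% in the 2 long lists.

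Of the 54 loci, 32 were held by at least 1 library of each line (59.3%, exact 95% interval 45.0 to 72.4%), where the background over all 788 loci was 36.8%. All 4 libraries held 4 of the 54 (7.41%, 2.06 to 17.9%, background 1.27%). At least 3 libraries held 14 (25.9%, 15.0 to 39.7%, background 7.23%), and 1 library alone held 21 (38.9%, 25.9 to 53.1%, background 62.8%). Each member share lies away from its background, but loci are not replicates and no test of these shares was made. Shares in 3 other windows, some of them higher, are given below. The counts depend on the overlap rule: when both regions had to overlap by 50%, 87 loci resulted, of which 11 were held in both lines, 3 by at least 3 libraries, 1 by all and 71 by 1. They also depend on the long lists, since the number in both lines was 5 without MB-1 and 15 without LM-2. Under these settings the same counts were not made over all loci, so the backgrounds above do not apply to them.

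The pattern of libraries followed the length of the lists. MB-1 held 50 of the 54 loci, LM-2 held 32, LM-1 held 17 and MB-2 held 6. The commonest patterns were MB-1 alone with 18 loci, that library with LM-2 with 17, and those 2 with LM-1 with 9. Only 4 loci were absent from MB-1. In other words, 19 of the 54 loci were listed in MDA-MB-231 only and 3 in MDA-LM2 only, and 18 of the 19 came from the longest list. Over all 788 loci these counts were 332 and 166. Merging chains overlaps, but of the 14 loci held by at least 3 libraries, 13 overlapped directly in every pair of their libraries. The exception lay on chromosome 5, at 180633612 to 180634168, where 5 of 6 pairs overlapped.

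**Figure D2:**
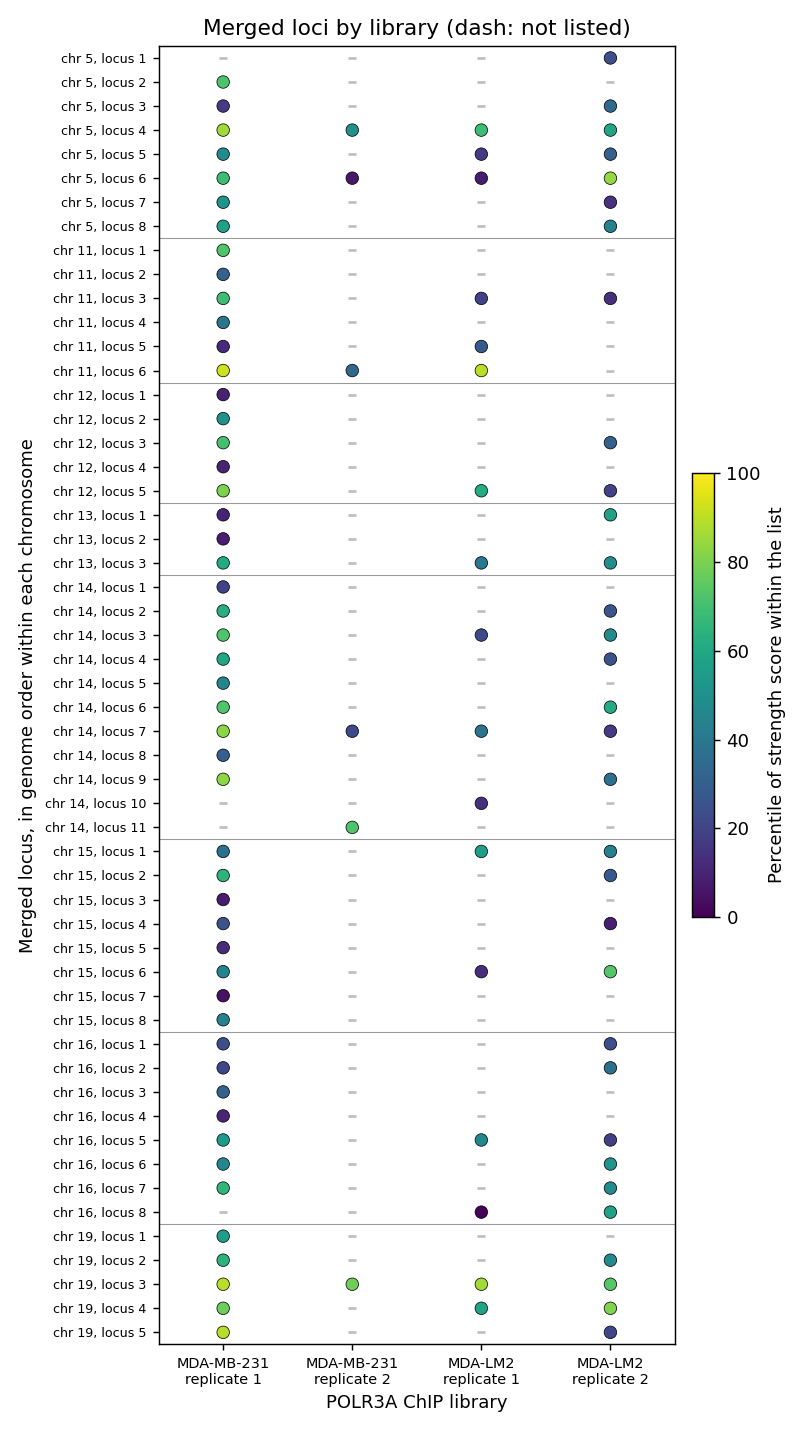
Each row is 1 of the 54 merged loci in genome order within its chromosome, each column a POLR3A ChIP library; a filled circle means that the locus was listed, coloured by the percentile of its strength score within that list, and a dash that it was not listed. The column of MB-1 is filled at 50 loci, and 4 rows are filled in every column.

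Among the 14 loci held by at least 3 libraries, the percentile spanned the least, 15.6 points, at the chromosome 19 locus at 1383104 to 1383785. Its scores were 26.4 and 15.6 for MB-1 and MB-2, then 11.8 and 17.5 for the MDA-LM2 pair. Its percentiles were 89.2, 77.8, 86.05 and 73.5 in that order. It was therefore among the 3 strongest members of every library, in both lines alike. The pile-up heights at its highest position were 45, 19, 18 and 23. Highest positions fell at 1383449, 1383229, 1383468 and 1383468, so those of MDA-LM2 coincided and that of MB-2 lay apart.

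The chromosome 5 locus at 180615237 to 180616294 was the widest of the 4 loci found everywhere, and its highest position was the same in 3 libraries to within 15 bp. Its percentiles were 85.6 in MB-1, 50 in MB-2, 68.6 in LM-1 and 59.3 in LM-2. Its heights were 40, 16, 13 and 22, and its regions were 1057, 174, 493 and 758 bp wide. The highest positions were 180615748, 180615752, 180615737 and 180615637, the last from LM-2.

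Farther along the same chromosome, the locus at 180633612 to 180634168 was also listed everywhere, but its rank was far from even. It had the highest score of any member in LM-2 (21.2, percentile 83.7). In LM-1 it stood near the bottom of the list (7.25, percentile 8.14). MDA-MB-231 showed the same kind of split, with 19.9 (percentile 69.0) in MB-1 and 10.97 (percentile 5.56, the weakest region of that list) in MB-2. In each line the longer list gave the higher percentile and the shorter list the lower one, and the cause was not tested.

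The remaining locus of the 4, on chromosome 14 at 23398624 to 23399201, was strong in MB-1 only. There its score was 23.5 (percentile 82.7), and it was 12.2 (percentile 22.2) in MB-2. In MDA-LM2 it scored 8.39 (percentile 38.4) and 10.5 (percentile 17.4). Its heights were 34 and 14 in MDA-MB-231 and 10 and 13 in MDA-LM2. Highest positions in MB-1 and LM-1 lay 10 bp apart, at 23398779 and 23398769.

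Another 10 loci were held by 3 libraries, and 9 of these lacked only MB-2. The exception, on chromosome 11 at 75946352 to 75947252, lacked LM-2. It was the strongest member of MB-1 (score 29.5, percentile 92.6, height 58) and of LM-1 (12.4, percentile 89.5, height 16). MB-2 also listed it (12.99, percentile 33.3, height 15). The 472-region list of LM-2 held nothing within 16.6 Mb of it. That list had only 1 region in the chromosome 11 window, against 6 in MB-1 and 3 in LM-1.

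The 9 loci that lacked MB-2 fell into differing rank patterns. On chromosome 12, the locus at 125411654 to 125412760 had percentiles of 80.2 in MB-1 and of 61.6 and 19.9 in LM-1 and LM-2. Its highest positions lay within 27 bp of one another, at 125412492, 125412465 and 125412475. On chromosome 19, the locus at 4723867 to 4724329 was high in each list that held it, with percentiles of 77.6, 58.1 and 80.5 in the same order. These loci show that the rank in the 2 MDA-LM2 libraries can go either way.

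On chromosome 15, the locus at 66161246 to 66161694 had percentiles of 44.6 in MB-1, 12.8 in LM-1 and 73.1 in LM-2. Its highest positions were nearly the same, at 66161502, 66161521 and 66161541. The other chromosome 15 locus, at 26327165 to 26327640, stood in the middle of the lists, with 36.5, 55.8 and 43.6. It is also the member nearest to a window bound, 0.327 Mb inside the start of the chromosome 15 window. The listed region nearest to a bound from outside, on chromosome 19 at 33667812 to 33668243, lay 0.332 Mb before the start of the second window of that chromosome and had a score of 17.8 in MB-1 (percentile 56.7).

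The other 5 loci of this kind were on chromosomes 5, 11, 13, 14 and 16. On chromosome 5 at 180618384 to 180618957, percentiles were 47.8, 17.4 and 29.9 in MB-1 and LM-1 and LM-2. On chromosome 11 at 59327701 to 59328242 they were 68.6, 19.8 and 13.98. On chromosome 14 at 21081534 to 21082285 they were 72.4, 22.1 and 47.7. On chromosome 16 at 14379596 to 14380090 they were 54.5, 46.5 and 18.6. On chromosome 13 at 45491825 to 45492472 they were 60.8, 39.5 and 48.9. LM-1 listed 2 separate regions there, with highest positions at 45491875 and 45492170 on either side of that of MB-1 at 45492032. The 39.5 belongs to the first. The second stood at percentile 2.33, with a height of 7 and its highest position at its start. In all 5, the percentile was highest in MB-1.

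**Figure D3:**
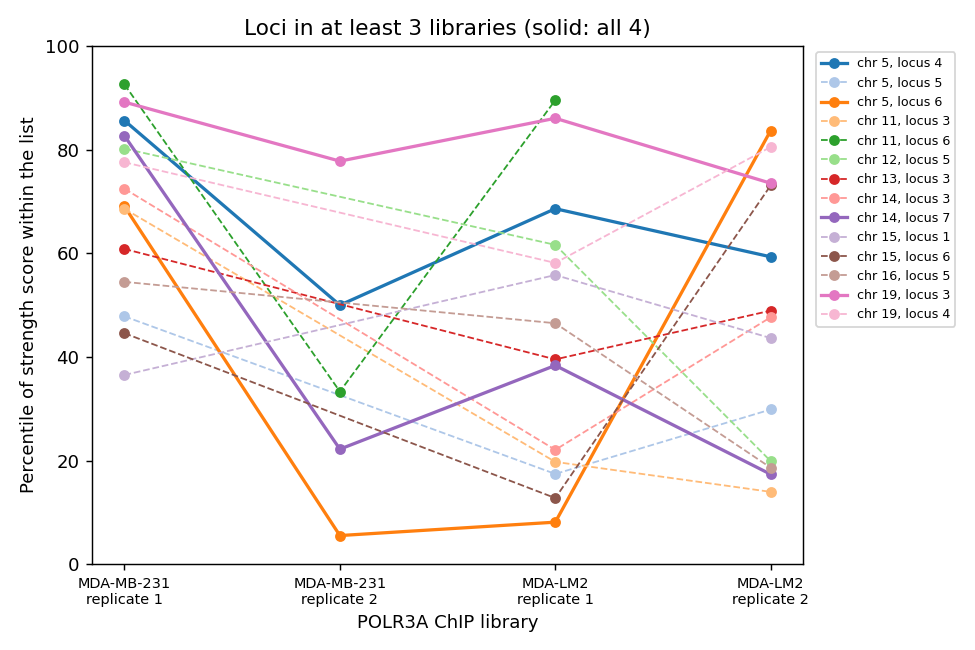
Percentile of the strength score within its list (vertical axis) for the 14 loci held by at least 3 libraries, across the 4 libraries (horizontal axis); solid lines join the 4 loci held by all libraries and dashed lines the others, which skip the library that lacks the locus. The third chromosome 19 locus stays above 73 in each library, while the sixth chromosome 5 locus runs from 5.56 to 83.7.

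One locus was listed by both MDA-LM2 libraries and by neither MDA-MB-231 library, against 3 over all loci (background 0.381%). It lies on chromosome 16 at 57333745 to 57334652. In LM-2 it was 907 bp wide with a score of 14.4 (percentile 57.6) and a height of 20. In LM-1 it was 135 bp wide with a score of 6.95 and a height of 7, at percentile 1.16, the weakest region of that list. MB-1 and MB-2 alone shared no member locus, and none of the 788 loci either (background 0%). The 18 regions of MB-2 limit how many such loci could exist, and with 2 libraries a line no single locus can be tested.

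Besides that locus, 18 loci were held by 2 libraries, 17 of them by the 2 long lists. Together they are 19 of the 54 loci, where 236 of all 788 loci were held by 2 libraries. The strongest of the 17 in MB-1 was on chromosome 19 at 4724463 to 4724948, 134 bp from the neighbouring locus described above. Its score of 26.3 (percentile 89.0, height 42) was the third highest of all members there, but LM-2 gave it 10.8 (percentile 21.4, height 11). The closest pair of loci on the 8 chromosomes thus ranked in opposite order in the 2 lists, since the neighbour had percentiles of 77.6 and 80.5. The remaining locus held by 2 libraries, on chromosome 11 at 66115460 to 66115736, was shared by MB-1 (percentile 11.9) and LM-1 (percentile 27.9).

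On chromosome 12, the locus at 98897049 to 98898285 was the widest member, and MB-1 listed it as 1 region of 1236 bp with its highest position at 98898043. LM-2 split it into regions of 401 and 521 bp with highest positions at 98897202 and 98898096. The second of these positions lay close to that of MB-1. The locus ranked higher in MB-1 (percentile 70.4) than did either region in LM-2 (16.9 and 30.1).

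Of the 21 loci held by 1 library, 18 were in MB-1, where they were weaker and narrower than the shared ones. Their median percentile was 30.3 (4.33 to 72.6), against 63.3 (10.1 to 92.6) for the 32 shared loci, and their median widths were 236 and 483 bp. The ranges overlap over most of their length. The strongest held by this library alone was on chromosome 11 at 59317921 to 59318831 (score 20.9, percentile 72.6, height 32), a region of 910 bp. Next came chromosome 5 at 134262712 to 134262970 (20.6, percentile 71.5, height 36) and chromosome 19 at 893271 to 893734 (17.6, percentile 55.1, height 21).

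Each of the other libraries had 1 locus of its own. In MB-2 it was on chromosome 14 at 102783400 to 102783574, with a score of 14.5 (percentile 72.2, height 17), the second strongest member of that list although the 646-region list of the same line lacked it. In LM-1 it was on chromosome 14 at 97019725 to 97019894 (7.48, percentile 13.95, height 8). In LM-2 it was on chromosome 5 at 134259742 to 134259906 (10.9, percentile 23.9, height 15). The last lay 2.81 kb from the chromosome 5 locus that only MB-1 held, so each long list marked a different place there.

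Pair by pair, members of the shorter lists were mostly found again in the longest one. Of the members of LM-2, 31 of 33 overlapped a region of MB-1 (93.9%, exact 95% interval 79.8 to 99.3%), against a background of 66.5% over its whole list. Of those of LM-1, 16 of 18 did (88.9%, 65.3 to 98.6%, background 84.9%), and of those of MB-2, 5 of 6 (83.3%, 35.9 to 99.6%, background 88.9%). For both short lists the share is near the background and the interval includes it. Within MDA-LM2, 14 of the 18 members of replicate 1 were in replicate 2 (77.8%, 52.4 to 93.6%, background 65.1%). In the other direction, 30 of the 50 members of MB-1 were in LM-2 (60.0%, 45.2 to 73.6%, background 46.7%), 15 in LM-1 (30.0%, 17.9 to 44.6%, background 9.75%) and 5 in its own replicate (10.0%, 3.33 to 21.8%, background 2.48%). The 6 members of MB-2 were found in each MDA-LM2 library in 4 cases (66.7%, 22.3 to 95.7%), with backgrounds of 55.6% in LM-1 and 88.9% in LM-2. Seen from the other side, these were 4 of the 18 members of LM-1 (22.2%, background 11.6%) and 4 of the 33 of LM-2 (12.1%, background 3.39%), and 14 of the 33 members of LM-2 were in LM-1 (42.4%, 25.5 to 60.8%, background 11.2%).

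The dispersed loci were set beside 3 other windows where listed regions gather. Of the 43 regions of MB-1 on chromosome 6 between 26 and 29 Mb, 14 were in LM-2 (32.6%) and 3 in LM-1 (6.98%), against 60.0% and 30.0% of the dispersed members. On chromosome 17 between 8 and 9 Mb the shares were 8 of 11 and 4 of 11 (72.7% and 36.4%), and on chromosome 1 between 161369196 and 161591707 they were 4 of 8 and 3 of 8 (50.0% and 37.5%). In MB-2, the shares of the same regions of MB-1 were 10.0% for the dispersed members, 2.33% on chromosome 6, 37.5% on chromosome 1 and 0 of 11 on chromosome 17 (exact binomial upper bound 28.5%). Of merged loci, 13 of 42 on chromosome 6, 8 of 11 on chromosome 17 and 4 of 8 on chromosome 1 were held in both lines. Among the dispersed loci it was 32 of 54. At least 3 libraries held 9.52%, 36.4% and 50.0% in the same order, against 25.9% of the dispersed loci. High sharing is thus not particular to the dispersed loci. These differences were not tested.

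At loci that libraries shared, the distance between their highest positions was measured. Regions that overlap are close by construction, so these distances describe the shared loci and are no measure of agreement. Between MB-1 and LM-2, highest positions at 30 shared loci were a median of 87 bp apart (17 to 243 bp), and 17 of the 30 lay within 100 bp. Under reciprocal overlap of 50% this median was 134 bp. Between MB-1 and LM-1 the median was 38 bp over 15 loci (8 to 250 bp), and between the MDA-LM2 libraries it was 66 bp over 14 loci (0 to 504 bp). Medians were larger for MB-2, at 213, 223 and 202 bp from MB-1, LM-1 and LM-2 over 5, 5 and 4 loci. Their ranges were 4 to 417, 15 to 320 and 115 to 296 bp, which overlap those of the other pairs. Sheared fragments measured 200 to 1000 bp, so the closer distances are below the length of a fragment. The 504 bp are those of the chromosome 16 locus that only MDA-LM2 held, where the libraries overlapped but put their highest positions at 57333946 and 57334450. The first of these, in LM-1, is the very start of a region of height 7, the weakest of that list.

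**Figure D4:**
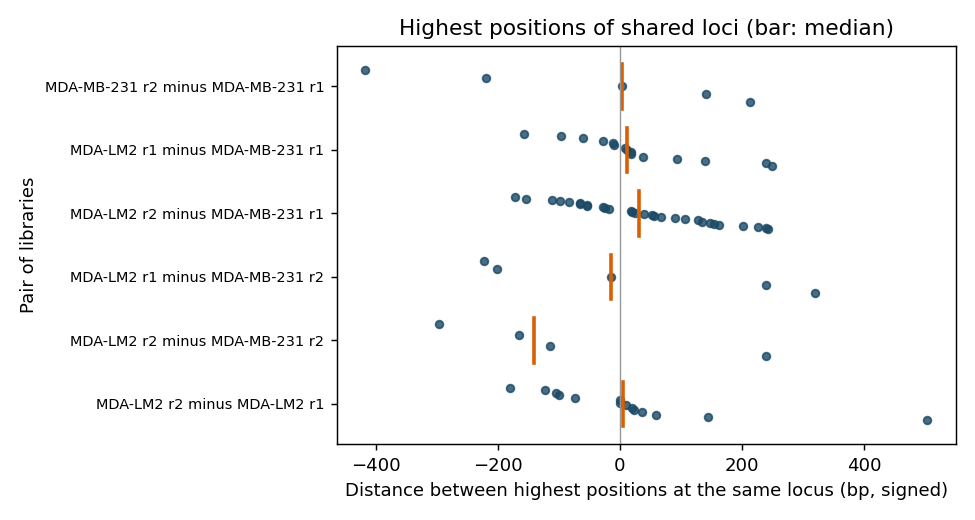
Signed distance in bp between the highest positions that 2 libraries gave the same member locus (horizontal axis), for each pair of libraries (vertical axis, r is replicate); points are loci and the bar is the median. Pairs without MB-2 have median absolute distances of 38 to 87 bp, and its own pairs 202 to 223 bp. The signed medians drawn for the pairs of MB-2 are 4 bp for MB-2 minus MB-1, -15 bp for LM-1 minus MB-2 and -140 bp for LM-2 minus MB-2.

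The rank of a shared member varied from library to library. Across the 30 loci of MB-1 and LM-2, percentiles had a Spearman rho of 0.14 and a Pearson r of 0.15. Across 15 loci of MB-1 and LM-1 they were 0.62 and 0.53, and across 14 loci of the MDA-LM2 libraries 0.02 and 0.02. These are descriptions over loci that share their libraries, and loci in a library share its depth. The percentile was higher in MB-1 at 21 of the 30 loci and higher in LM-2 at 9. The largest differences were 67.6 points at the chromosome 19 locus at 4724463 and 47.1 points the other way at the chromosome 13 locus at 31247719 to 31248293 (percentiles 10.1 and 57.2).

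Within their lists the members stood at moderate strength. The median percentile of members was 51.3 in MB-1 (4.33 to 92.6), 41.7 in MB-2 (5.56 to 77.8), 33.1 in LM-1 (1.16 to 89.5) and 36.4 in LM-2 (8.69 to 83.7). Both MDA-LM2 medians lay below both MDA-MB-231 medians, with means of 34.8 and 46.5 (difference -11.7). An exact two-sided permutation test over libraries gave p = 0.333, the smallest that 2 against 2 allow. These percentiles come from lists of very different length and are not on 1 scale. The other regions of the same lists had medians of 49.9, 58.3, 54.1 and 51.9. Members were thus weaker than the rest in 3 of 4 lists, by a mean of -12.9 percentile points over the 4, and an exact two-sided sign-flip permutation over libraries gave p = 0.25 (adjusted p = 0.333 over 4 measures), where 4 libraries cannot go below 0.125. The median pile-up height of members was lower than that of other regions in 4 of 4 lists, at 24 against 28, 15.5 against 17, 10 against 12 and 15 against 21 (exact permutation p = 0.125, the smallest possible, adjusted p = 0.333). With 4 libraries no difference of this kind can pass a threshold of 0.05.

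Members were wider in MB-1 than elsewhere. Their median widths were 395.5, 171, 165 and 222 bp in the 4 lists in order, against 274, 179.5, 163.5 and 218 bp for other regions of the same lists. Only in MB-1 were members wider than the rest by more than 4 bp, and over the 4 libraries the exact sign-flip permutation gave p = 0.625 (adjusted p = 0.625). At the 30 loci shared with LM-2, the region was wider in MB-1 at 26. Merged loci held by at least 3 libraries had a median width of 575 bp, against 458 bp for those in 2 and 210 bp for those in 1. A merged locus spans every region joined in it, so joining more libraries can only widen it. Wide regions also overlap others more readily, so this order is largely set by the merging. The highest position lay at a median of 43.6, 26.9, 22.7 and 49.6% of the way along a member, against 48.05, 40.1, 34.1 and 45.6% in other regions (exact permutation p = 0.25, adjusted p = 0.333). It was nearer the region's start in 3 of the 4 lists, in members as set against the rest.

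By chromosome, loci were most frequent on chromosome 14 and rarest on chromosome 13. Chromosome 14 held 11 loci, chromosomes 5, 15 and 16 held 8 each, chromosome 11 held 6, chromosomes 12 and 19 held 5 each, and chromosome 13 held 3. Per 10 Mb of window this ranged from 0.333 on chromosome 13 to 1.27 on chromosome 14, with 1.14 on chromosome 16, 1.06 on chromosome 19 and 1.04 on chromosome 15. Chromosomes 5, 11 and 12 had 0.635, 0.779 and 0.562. All loci of chromosome 19 lay in the first of its windows, and the second held no member, although the density counts both. Each chromosome had at least 1 locus held by 3 or more libraries, and chromosome 5 had the most, with 3.

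The libraries did not cover the chromosomes in equal proportion. LM-2 held 7 of the 8 loci of chromosome 5 and 6 of the 8 of chromosome 16, but 1 of 6 on chromosome 11 and 2 of 5 on chromosome 12. MB-1 held all loci on chromosomes 11, 12, 13, 15 and 19, and 9 of 11 on chromosome 14. LM-1 held between 1 and 3 loci on each of the 8, and MB-2 held none on chromosomes 12, 13, 15 and 16.

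The RefSeq table of GRCh38.p14, used for names, chromosomes and the order of genes only, has 105 tRNA genes on these 8 chromosomes of 443 on the nuclear chromosomes. Chromosome 16 has the most, with 26, followed by chromosome 14 with 19, chromosome 5 with 18, chromosome 11 with 13, chromosomes 12 and 15 with 9 each, chromosome 19 with 7 and chromosome 13 with 4. Across the 8 chromosomes the number of loci and of genes had a Spearman rho of 0.83 and a Pearson r of 0.73, given as a description, since chromosomes differ in length and the genes are counted over whole chromosomes of another build. Chromosome 16, with the most genes, had 8 loci, 3 of which lay together between 3200598 and 3209120. A locus can hold more than 1 gene, and the number of genes per locus was not measured.

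In a tRNA gene symbol, the letter after TR is the amino acid that the tRNA carries and the 3 letters after the hyphen are its anticodon. On these chromosomes the largest families are lysine (TRK) and proline (TRP) with 14 genes each, leucine (TRL) with 12 and valine (TRV) with 11. For proline that is 14 of the 20 nuclear genes in the table, and for lysine 14 of 27. At the other end, cysteine (TRC) has 2 of its 29 genes here and glutamine (TRQ) 1 of 19. The smallest set, that of chromosome 13, has TRE-TTC1-2 and TRE-TTC2-1 for glutamate, TRF-GAA1-5 for phenylalanine and TRN-GTT2-4 for asparagine. Chromosome 15 has 3 histidine genes, TRH-GTG1-7, TRH-GTG1-8 and TRH-GTG1-9, that follow one another among its tRNA genes. Which of these genes the listed regions hold was not analysed here.

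**Figure D5:**
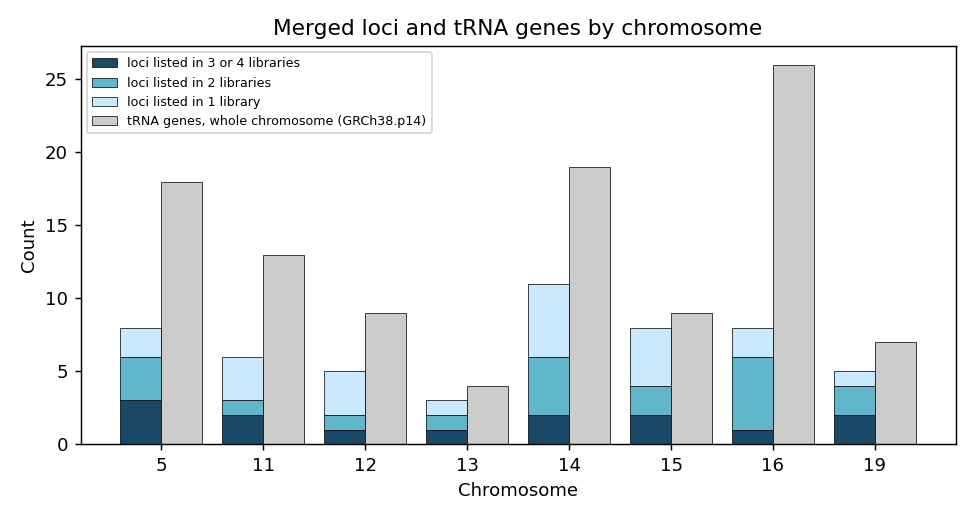
Number of merged loci in the windows of each chromosome, stacked by how many libraries listed them, beside the number of tRNA genes on the whole chromosome in the GRCh38.p14 table (grey). Chromosome 14 has the most loci (11), chromosome 16 the most genes (26) and chromosome 13 the fewest of both (3 and 4).

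Although the loci are dispersed over the genome, 28 of the 54 lay in 9 runs of neighbours no more than 50 kb apart, and 26 stood alone. The longest run, on chromosome 5 from 180614537 to 180645593, had 6 loci over 31.1 kb. MB-1 and LM-2 each listed all 6, LM-1 listed 3 and MB-2 listed 2. It was the only run of 3 or more loci that both long lists held in full.

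In the chromosome 11 run, from 59317921 to 59333892, MB-1 listed 4 loci and each MDA-LM2 library listed the same single one. On chromosome 14, the runs at 21077437 to 21082285 and 21149689 to 21152423 had 3 loci each, of which LM-2 held 2 in each. The chromosome 15 run at 45490857 to 45493472 and the chromosome 16 run at 3200598 to 3209120 also had 3 loci, of which LM-2 held 1 and LM-1 none. Runs of 2 loci lay on chromosomes 5, 12 and 19. Runs thus ranged from held in full by both long lists to held almost wholly by MB-1.

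Loci in runs and loci standing alone were held by at least 3 libraries about equally often, at 7 of 28 (25%, exact 95% interval 10.7 to 44.9%) and 7 of 26 (26.9%, 11.6 to 47.8%). In MB-1 their median percentiles were 51.7 and 50.9. In LM-1 and LM-2, loci in runs had medians of 22.1 and 29.9 and single loci 39.0 and 47.5. The closest loci that did not merge were 134 bp apart on chromosome 19, 168 bp apart on chromosome 5 and 171 bp apart on chromosome 14. The widest stretch of window between neighbouring loci was 46.4 Mb on chromosome 5, between 134262970 and 180614537, and was followed by 39.8 Mb on chromosome 12. Longer stretches without a member lay at window ends. They included 79.3 Mb before the first locus of chromosome 5 and 69.5 Mb after the last of chromosome 13.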

How the data were processed

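POLR3A ChIP-seq of MDA-MB-231 and MDA-LM2 was used as 1 deposited region list per ChIP library (2 per line), with 11 columns and no header. Per the submitters' processing notes, the build is hg19 and the tools include bedtools, DESeq and Bowtie2 2.2, without their roles. Region calling, its threshold and the use of input: not given in the sources used here. Columns were read from their values: the authors' deposited strength score, the deposited signal (pile-up height, with no depth correction that the values show) and the deposited percent that places the highest position in the region. Depth is unknown, and starts may count from 0 or 1.

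Regions were placed in windows by their midpoint, merged at an overlap of at least 1 bp over all 4 lists, and counted with exact Clopper-Pearson 95% intervals. An exact two-sided permutation test over libraries compared the lines, and an exact sign-flip permutation over libraries compared members with other regions of the same list, with Benjamini-Hochberg adjustment over 4 tests in each family. The code was tested on simulated lists. Python 3.11.15, pandas 2.3.3 and SciPy 1.17.1 were used. Alternatives were the region start, reciprocal overlap of 50%, a gap of 500 bp, regions above the median score of each list, its 18 strongest regions and leaving out each library.

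The windows, tests and lists were chosen with earlier results of these data known. Named loci are those in at least 3 libraries, those in both libraries of 1 line only, the 3 strongest members per library, the 3 strongest held by 1 library alone and the closest and farthest neighbours. Other named loci, the runs of 50 kb and the comparison with other regions were chosen after their values were seen.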

Additional observations from a re-analysis of the deposited data

How the results depend on the processing

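Placing regions by their start changed no count of members. Keeping regions above the median score of each list left 26, 2, 6 and 9 members in MB-1 and MB-2 and LM-1 and LM-2. These were 8.05% of 323, 22.2% of 9, 13.95% of 43 and 3.81% of 236 regions kept. In the whole lists the shares were 7.74, 33.3, 20.9 and 6.99%. This filter left 32 loci, 7 of them in both lines, 3 in at least 3 libraries and 1 in every library. Shared members were 1 (MB-2 in each other list), 5 (LM-1 in MB-1), 5 (LM-2 in MB-1) and 3 (within MDA-LM2). Reciprocal overlap of 50% gave 87 loci, 71 of them in 1 library, 11 in both lines, 3 in at least 3, 1 in every library and 5 in both MDA-LM2 libraries only. Shared members were then 1, 1 and 1 for MB-2, 2 and 8 for LM-1 in MB-1 and in LM-2, and 11 for LM-2 in MB-1. The cause was not tested. The median distance of highest positions between the long lists was 134 bp under that rule, against 87. Allowing 500 bp moved no count by over 1.5 times. Under these alternatives loci and shared regions were counted for members only, so those counts have no background here.

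Leaving out 1 library moved the line difference in members from -24.5 to 19.5 (reversed to 19.5 and 5 without MB-1 and LM-1) and in share from -19.4 to 6.22 percentage points (reversed to 6.22 and 0.394 without MB-2 and LM-2). Loci ranged from 38 to 53, those in 1 library from 20 to 38, those in at least 3 from 4 to 13, and those in every remaining library from 4 to 13. With 3 lists left, all of them must hold a locus counted in at least 3, and the number was 4 without MB-1, 4 without LM-1, 5 without LM-2 and 13 without MB-2, the 18-region list. The loci in both lines, whose alternatives were added after seeing the data, ranged from 5 (without MB-1) to 32. With a library left out, no such count was made over all loci. Of 18 strongest regions per list, 0, 6, 2 and 0 were members in MB-1, MB-2, LM-1 and LM-2, a line difference of -2. In MB-2 these 18 regions are the whole list, so its 6 members were not selected by strength. This difference therefore sets an unselected list beside selected ones.

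With replicate number as a block, the differences stayed -2.5 members and -6.58 percentage points (exact sign-flip permutation p = 1 for both, smallest possible 0.5), and 0 calls were made, as without it. Same-numbered libraries correlated at 0.36 over 788 loci in their deviations from the line mean, and the labels tie the numbers to no shared culture. Every locus had to be in at least 1 list, and the lists differ widely in length, which by itself shifts this correlation. It therefore cannot show whether same-numbered libraries belong together. Depth is unknown, and a locus missing from a list was only not listed there, which does not show that the polymerase was absent.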
